A study of Homo sapiens with 12 samples.

Results

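Canonical p53 target genes, without CDKN1A, were followed by RNA sequencing in LMSU cells, a line from human gastric cancer whose labels give the p53 variant R175H. The members are 34 textbook targets, taken by gene symbol from the 25435 symbols of the deposited count table, where all 34 were found. Of these, 31 passed the filter on low counts and were tested, among 13365 genes in all. EDA2R, a receptor of ectodysplasin, and SPATA18, a gene of mitochondrial quality control, had 0 counts in every library, which allows levels of up to 0.186 to 0.321 CPM, counts relative to the library's total (3 counts in a library, counting error only). TNFRSF10C, a decoy receptor of TRAIL, reached at most 0.728 CPM and was not tested.

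There were 12 libraries, 2 in each of 6 groups. A knockout arm was labelled GFP and had no doxycycline: there, cells with the construct sg-1, whose label gives no R175H p53, were set against cells with the control construct V2, which keep it. In the knockdown arm, labelled with doxycycline, cells with p53 shRNA 1 and cells with p53 shRNA 2, which the labels give as lacking R175H p53, were set against cells with a scramble hairpin and cells with vector, which keep it. All groups share the LMSU background. The labels do not say whether the knockout cells are a clone or a pool, nor whether the replicates are separate cultures, so p-values measure the spread between these libraries, which may be technical.

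In cells with wild-type p53, stress stabilises the protein, which binds DNA as a tetramer and switches on genes that stop the cell cycle, repair DNA, or start apoptosis through mitochondria and death receptors. Several targets feed back on p53 itself, MDM2 most directly, by marking it for degradation. R175H lies in the DNA-binding domain and is known to disturb its fold and to impair binding to such targets, and the comparisons ask whether any remaining control by the mutant is visible when it is removed. Some members are also known to answer to other stress regulators: GDF15, SESN2 and PMAIP1, for example, are known targets of ATF4, the factor of the integrated stress response.

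RefSeq promoter windows (GRCh38.p14, from 250 bases before to 50 after a transcript start) were at hand for 26 of the 34 members, 40 windows in all, and were searched on both strands for the p53 consensus decamer, allowing no mismatch. Of the 26 genes, 7 held the decamer (26.9%), against 2202 of all 27305 genes with a window (8.06%). Members had more windows per gene, and by window the shares were 17.5% of 40 against 6.63% of 35116. The members were chosen as textbook p53 targets, so these shares do not test the list. DDB2 held a pair of decamers separated by at most 13 bases, as did 10 of the 27305 genes (0.0366%). The matches are shown because they resemble the textbook p53 binding site. No window was at hand for TP53INP1, RRM2B, TNFRSF10B, TNFRSF10C, TNFRSF10D, GADD45A, FBXO22 and PHLDA3. They are written 5′ to 3′ on the strand of the gene, with the bases that match in capitals and the flanks and spacer in lower case:
DDB2, chr11:47214975-47215003, plus strand: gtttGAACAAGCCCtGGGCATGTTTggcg
PLK2, chr5:58460199-58460228, minus strand: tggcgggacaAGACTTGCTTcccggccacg
RPS27L, chr15:63157517-63157546, minus strand: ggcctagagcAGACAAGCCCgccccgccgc
AEN, chr15:88621296-88621325, plus strand: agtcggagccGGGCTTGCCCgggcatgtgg
FDXR, chr17:74872986-74873015, minus strand: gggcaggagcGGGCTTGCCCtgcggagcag
FAS, chr10:88991299-88991328, plus strand: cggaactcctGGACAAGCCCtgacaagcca
SESN1, chr6:109009018-109009047, minus strand: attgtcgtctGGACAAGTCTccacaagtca
The match began 132 bases before the start in PLK2, 59 in RPS27L, 34 in AEN, 11 in FDXR, 122 in FAS and 49 in SESN1, and at base 6 after it in DDB2. The coordinates cover the printed bases.

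The 250 bases before the start are shown for GDF15, the member with the largest difference between the hairpins, and for PLK2, the member with the deepest fall against vector, with the decamer in capitals. GDF15 held no match in its window, which says only that these letters are not in it.
GDF15, chr19:18385908-18386157, plus strand: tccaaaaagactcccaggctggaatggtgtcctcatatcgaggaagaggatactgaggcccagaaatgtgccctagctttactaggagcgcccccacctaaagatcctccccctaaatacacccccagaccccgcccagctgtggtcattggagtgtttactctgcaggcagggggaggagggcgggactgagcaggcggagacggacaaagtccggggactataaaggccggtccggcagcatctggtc
PLK2, chr5:58460087-58460336, minus strand: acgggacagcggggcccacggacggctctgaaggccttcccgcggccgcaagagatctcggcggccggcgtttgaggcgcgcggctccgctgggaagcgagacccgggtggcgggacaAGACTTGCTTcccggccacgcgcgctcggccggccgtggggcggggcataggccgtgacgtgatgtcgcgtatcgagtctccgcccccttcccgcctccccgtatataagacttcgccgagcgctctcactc
Of the 7 genes with the decamer, PLK2 and RPS27L were called in at least 1 comparison with a p53 construct. DDB2, AEN, FDXR, FAS and SESN1 were not. Of all tested genes, 33.4% were called in at least 1 such comparison. Whether calls go with the decamer was not tested. A match describes the sequence and does not show binding in these cells.

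Total counts ran from 9738094 to 16823246 per library. Levels are CPM with TMM scaling, given per library in replicate order. Variation between replicates beyond counting error came to 15.6% (coefficient of variation) for the knockout arm and to 3.08% for the knockdown arm. It came to 9.55% when all 12 libraries shared an estimate, which is the spread behind the tests here. The replicates of the knockout control stood farthest apart: over tested genes their chi-square per degree of freedom was 32.6, against 9.57 in the knockout and 1.54 to 2.25 in the knockdown-arm groups. Against the label of a gastric line, 7 markers of gastric epithelium summed to 0.203 to 0.923 CPM, TFF1, TFF2 and GKN2 were at 0 counts in every library, and the epithelial genes EPCAM and CDH1 had at most 2 counts in a library. Markers of leukocytes summed to at most 0.539 CPM and those of endothelium to at most 1.78 CPM. The keratin genes KRT8 (63.9 to 207.7 CPM) and KRT18 (185 to 283 CPM) were expressed, while KRT7 had 0.830 to 7.23 CPM and KRT19 at most 0.247 CPM. All 8 markers of fibroblasts passed the filter on low counts, the collagen gene COL1A1 (1427 to 6739 CPM) among them.

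Genes were called at an adjusted p below 0.05. With the quasi-likelihood test of edgeR, adjusted by Benjamini-Hochberg over all 13365 genes, the knockout moved no canonical target past the threshold, and each hairpin moved several, in both directions. In the knockout, 0 of the 31 tested members were called (background 0.015% of tested genes), 5 had an unadjusted p below 0.05, and DESeq2 called 0 as well. With shRNA 1 against scramble 4 members rose and 3 fell (background 9.41%), and with shRNA 2 against scramble 4 rose and 2 fell (background 7.74%). Against vector 4 rose and 2 fell with shRNA 1 (background 13%), and 6 rose and 5 fell with shRNA 2 (background 21%). Scramble itself, with p53 kept, had 4 members higher and 5 lower than vector (background 15.3%), a count within the range of the hairpin comparisons. The comparisons with scramble share its libraries, as do those with vector.

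The shares called, 22.6%, 19.4%, 19.4% and 35.5% for those 4 hairpin comparisons and 29.0% for scramble against vector, all lay above the background, in the comparison of the controls too. The list was chosen with earlier results of these data known, so these shares do not test whether the members respond to p53. Median log2 fold changes of the 31 were -0.06 in the knockout (all genes -0.01), -0.01 and 0.05 with shRNA 1 and shRNA 2 against scramble, and 0.07 and -0.01 against vector, where the median of all genes lay between -0.01 and 0.01. A fit of the 8 knockdown-arm libraries alone, with its smaller spread, called 14 members with shRNA 1 against scramble (background 33.2%), 15 with shRNA 2 against scramble (background 31.5%), 14 with shRNA 1 against vector (background 40.7%), 18 with shRNA 2 against vector (background 46.7%) and 15 in scramble against vector (background 42.1%). Of the 31 tested members, 14 were called in at least 1 of the 6 comparisons that involve a p53 construct (background 33.4%) and 17 in none.

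**Figure D1:**
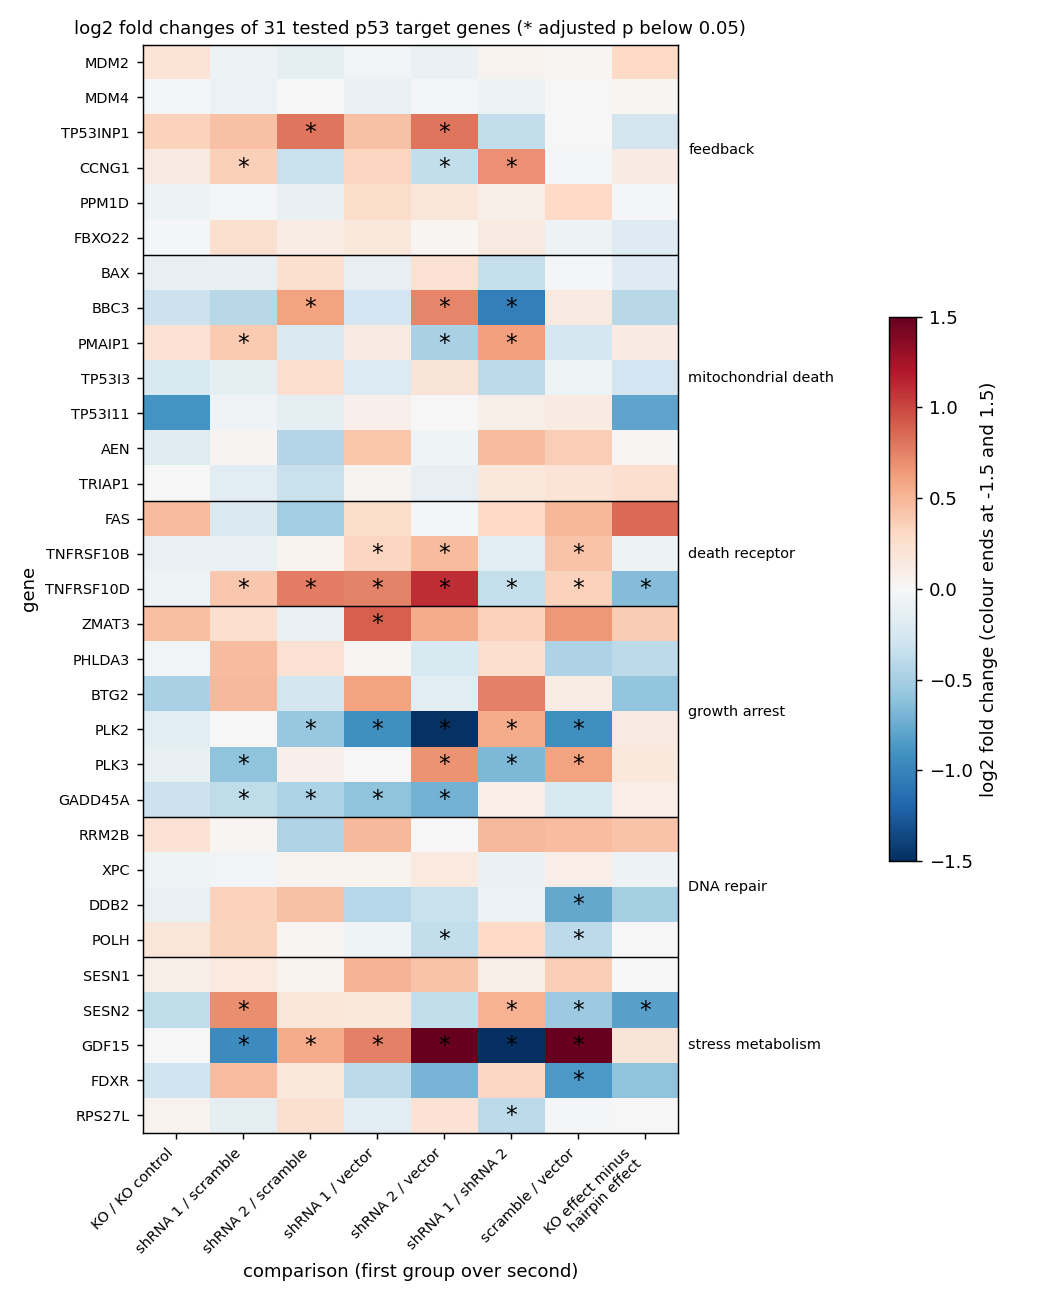
Log2 fold changes of the 31 tested p53 target genes (rows, grouped by role) in 8 comparisons (columns, first group over second), where an asterisk marks an adjusted p below 0.05. The knockout column holds 0 asterisks, TNFRSF10D and GADD45A are marked in all 4 columns of a hairpin over a control, and GDF15 changes sign between shRNA 1 and shRNA 2 over scramble.

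These counts depended on single libraries, and the share of all tested genes called moved with them. On leaving out 1 library that share ran from 2.48% to 21.2% with shRNA 1 and from 1.72% to 19.3% with shRNA 2 against scramble, from 3.64% to 28% and from 10.3% to 35.3% against vector, and from 6.44% to 29.8% in scramble against vector. Without replicate 1 or replicate 2 of the knockout control, the noisiest group, the members called rose to 12 and 12 with shRNA 1 against scramble, 12 and 12 with shRNA 2 against scramble, 11 and 11 with shRNA 1 against vector, and 15 and 15 in scramble against vector. With shRNA 1 against scramble the count was 2 and 1 without replicate 1 or 2 of shRNA 1, 2 and 1 without those of scramble, 3 and 3 without those of shRNA 2, and 3 and 4 without those of vector. With shRNA 2 against scramble it was 3 and 2 without replicate 1 or 2 of shRNA 2, and 3 and 2 without those of scramble. With shRNA 1 against vector it was 3 without any 1 of the libraries compared. With shRNA 2 against vector it was 7 without replicate 1 of shRNA 2 or replicate 1 of vector. In scramble against vector it was 5 and 3 without replicate 1 or 2 of scramble, and 3 and 4 without those of vector.

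Only TNFRSF10D and GADD45A, among the 31, were called the same way with both hairpins against both controls, a pattern that 70 of all tested genes showed (background 0.524%). TNFRSF10D, a decoy receptor that binds TRAIL without passing on the death signal, was at 38.3 and 38.1 CPM with shRNA 1, at 51.1 and 47.0 CPM with shRNA 2, at 28.8 and 29.0 CPM with scramble, and at 23.1 and 22.4 CPM with vector. Every hairpin library lay above every control library of the arm. On the log2 scale, TNFRSF10D rose against scramble by 0.40 in shRNA 1 cells (SE 0.091, adjusted p 0.019) and by 0.76 in shRNA 2 cells (SE 0.090, adjusted p 5.8e-04), and against vector by 0.75 (adjusted p 4.6e-04) and 1.11 (adjusted p 1.1e-05). The controls also differed, scramble lying 0.35 above vector (adjusted p 0.027). That call was lost with DESeq2, with no filter on low counts and without any 1 library of scramble or vector. The rise with shRNA 1 against scramble was lost without any 1 library of shRNA 1 or scramble. The other 3 calls of a hairpin over a control held in every setting run. In the knockout arm it was at 44.4 and 45.4 CPM in the knockout, against 48.2 and 45.5 CPM in the knockout control, a log2 fold change of -0.06 (95% interval -0.25 to 0.13, adjusted p 0.84). TNFRSF10C and TNFRSF10B are close relatives of TNFRSF10D, and how reads that match several of them were counted is not given in the sources used here.

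GADD45A, a growth-arrest and DNA-damage gene, was at 41.4 and 40.4 CPM with shRNA 1, at 38.9 and 37.4 CPM with shRNA 2, at 54.3 and 52.0 CPM with scramble, and at 65.0 and 59.4 CPM with vector. Every hairpin library lay below every control library of the arm. It fell by 0.38 with shRNA 1 (SE 0.094, adjusted p 0.029) and by 0.48 with shRNA 2 (SE 0.094, adjusted p 0.011) against scramble, and by 0.60 (adjusted p 0.0018) and 0.70 (adjusted p 2.9e-04) against vector. Scramble and vector did not separate by the test (-0.23, adjusted p 0.12). In the knockout it was at 93.1 and 98.9 CPM, against 126.1 and 114.7 CPM in its control, a log2 fold change of -0.33 (95% interval -0.52 to -0.13) that was not called (adjusted p 0.50), although the libraries did not overlap. The calls against vector held in every setting run. That of shRNA 1 against scramble was lost with no filter on low counts, without any 1 library of scramble or either hairpin, and without replicate 1 of vector (adjusted p up to 0.20), and that of shRNA 2 without any 1 library of shRNA 2 or scramble (adjusted p up to 0.12).

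Among the genes that feed back on p53, the ligase gene MDM2 was not called in any of the 8 comparisons. MDM2 was at 69.0 and 58.8 CPM in the knockout, against 44.0 and 67.5 CPM in its control, so the groups overlapped and the spread within the control was wider than the gap between groups (log2 fold change 0.20, 95% interval -0.15 to 0.55, adjusted p 0.79). It was at 40.1 and 39.8 CPM with shRNA 1, at 39.6 and 37.3 CPM with shRNA 2, at 42.8 and 41.4 CPM with scramble, and at 41.0 and 41.2 CPM with vector. Its log2 fold changes with the hairpins lay between -0.13 and -0.04, with adjusted p of 0.72 to 0.90. MDM4, which encodes a relative of MDM2 that blocks activation by p53, had 26.4 to 43.0 CPM over all libraries, PPM1D, a phosphatase gene that dampens the damage response, 11.8 to 16.6 CPM, and FBXO22, an F-box protein gene, 15.7 to 27.6 CPM. None of these 3 was called in any of the 8 comparisons.

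TP53INP1, which encodes a p53-induced nuclear protein of stress and autophagy, was at 21.4 and 19.4 CPM with shRNA 1, at 26.3 and 26.3 CPM with shRNA 2, at 14.5 and 15.6 CPM with scramble, and at 14.0 and 16.0 CPM with vector. Both hairpins lay above both controls in every library. It rose by 0.80 (SE 0.16, adjusted p 0.012) and 0.81 (SE 0.16, adjusted p 0.0039) with shRNA 2 against scramble and vector, while the values with shRNA 1, 0.44 and 0.44, did not pass (adjusted p 0.13 and 0.10). The rise against scramble was lost without any 1 library of shRNA 2 or scramble (adjusted p up to 0.13), and that against vector without replicate 1 of vector (adjusted p 0.054). In knockout cells levels were 7.05 and 6.97 CPM, against 4.24 and 6.98 CPM in the knockout control.

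CCNG1, the gene of cyclin G1, which brings a phosphatase to MDM2, was at 103.8 and 96.8 CPM with shRNA 1, at 61.5 and 62.9 CPM with shRNA 2, at 78.4 and 77.9 CPM with scramble, and at 79.9 and 80.3 CPM with vector. The controls stood together, with shRNA 1 above them and shRNA 2 below. CCNG1 rose by 0.36 with shRNA 1 against scramble (SE 0.10, adjusted p 0.047) and fell by 0.36 with shRNA 2 against vector (SE 0.10, adjusted p 0.026), and the hairpins differed from each other by 0.69 (adjusted p 0.0014). The rise against scramble was lost with RLE size factors, with DESeq2 and without any 1 of the libraries other than those of the knockout control (adjusted p up to 0.27), and the fall against vector without any 1 library of shRNA 2 or vector (adjusted p up to 0.15). Knockout libraries had 42.0 and 46.1 CPM, against 36.2 and 44.0 CPM in the knockout control.

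Of the 7 tested genes of mitochondrial death, BBC3 and PMAIP1 were called between the hairpins, in opposite directions. Between the hairpins 29.0% of the 31 members were called (background 14.3%). BBC3, which encodes PUMA, a protein that frees BAX to permeabilise mitochondria, was at 18.7 and 17.5 CPM with shRNA 1, at 34.9 and 38.5 CPM with shRNA 2, at 26.1 and 22.3 CPM with scramble, and at 22.5 and 21.6 CPM with vector. It was highest with shRNA 2 and lowest with shRNA 1, with the controls between. BBC3 rose by 0.60 (SE 0.11, adjusted p 0.0088) and 0.73 (SE 0.11, adjusted p 8.5e-04) with shRNA 2 against scramble and vector, and was at -0.42 (adjusted p 0.053) and -0.29 (adjusted p 0.14) with shRNA 1. The rise against scramble was lost without replicate 2 of scramble or replicate 2 of shRNA 2 (adjusted p up to 0.13). In the knockout it was at 4.90 and 5.35 CPM, against 6.75 and 6.04 CPM in its control, a difference that was not called (-0.32, adjusted p 0.77).

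PMAIP1, the gene of NOXA, a related pro-death protein, showed the reverse order of the hairpins. It was at 24.9 and 26.0 CPM with shRNA 1, at 16.2 and 17.1 CPM with shRNA 2, at 19.2 and 19.5 CPM with scramble, and at 23.4 and 23.1 CPM with vector. PMAIP1 rose by 0.39 with shRNA 1 against scramble (SE 0.099, adjusted p 0.031), a call lost with DESeq2, with no filter on low counts and without any 1 knockdown-arm library (adjusted p up to 0.18), and fell by 0.48 with shRNA 2 against vector (SE 0.099, adjusted p 0.0051), a call lost without replicate 1 of shRNA 2 (adjusted p 0.057). In knockout cells levels were 26.8 and 26.7 CPM, against 22.2 and 24.002 CPM in the knockout control (0.21, adjusted p 0.77).

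The other mitochondrial members were not called in any of the 8 comparisons. They were BAX, which forms the pore (28.0 to 83.8 CPM over all libraries), TP53I3, a quinone oxidoreductase gene (26.1 to 57.3 CPM), AEN, a nuclease gene of apoptosis (13.5 to 46.6 CPM), TRIAP1, an inhibitor of apoptosis (16.9 to 30.0 CPM), and TP53I11 (0.338 to 2.55 CPM). BAX was at 56.1 and 69.4 CPM in the knockout, against 83.8 and 53.1 CPM in its control, so that the knockout lay inside the range of its control.

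Among the death receptors, TNFRSF10B, which encodes the TRAIL receptor DR5, was at 123.3 and 123.5 CPM with shRNA 1, at 138.1 and 136.3 CPM with shRNA 2, at 130.9 and 133.8 CPM with scramble, and at 93.1 and 103.8 CPM with vector. Vector stood below the other groups of the arm. TNFRSF10B rose by 0.32 and 0.48 with shRNA 1 and shRNA 2 against vector (adjusted p 0.023 and 0.0015), was 0.43 higher in scramble than in vector (adjusted p 0.0043), and stood at -0.10 and 0.05 against scramble (adjusted p 0.51 and 0.78). The rise with shRNA 1 was lost with no filter on low counts and without any 1 library of shRNA 1 or vector (adjusted p up to 0.23). The call of scramble above vector was lost without replicate 2 of scramble or replicate 1 of vector. Knockout libraries had 102.6 and 101.0 CPM, against 109.5 and 108.0 CPM in the knockout control. FAS, the receptor of FAS ligand, had 3.24 to 6.63 CPM, and was not called in any comparison: its knockout libraries, at 6.08 and 6.63 CPM, lay above those of the control, at 3.97 and 5.28 CPM (0.47, adjusted p 0.76).

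The growth-arrest kinase genes PLK2 and PLK3 differed in direction with shRNA 2 against vector. PLK2 was at 235.7 and 232.2 CPM with shRNA 1, at 160.7 and 156.5 CPM with shRNA 2, at 230.7 and 239.3 CPM with scramble, and at 443.4 and 443.7 CPM with vector. Vector was far above the other groups and shRNA 2 below them, while shRNA 1 and scramble overlapped. It fell by 0.57 with shRNA 2 against scramble (SE 0.071, adjusted p 8.7e-04), and by 0.92 and 1.48 with shRNA 1 and shRNA 2 against vector (adjusted p 2.8e-05 and 3.2e-07), and scramble was itself 0.92 below vector (log2 fold change -0.92, adjusted p 1.4e-05). In the knockout it was at 269.8 and 266.0 CPM, against 302.3 and 294.7 CPM in its control, without overlap and without a call (-0.16, 95% interval -0.31 to -0.0020, adjusted p 0.77).

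PLK3 was at 26.9 and 28.8 CPM with shRNA 1, at 45.4 and 43.3 CPM with shRNA 2, at 43.9 and 40.5 CPM with scramble, and at 26.1 and 29.4 CPM with vector. It fell by 0.60 with shRNA 1 against scramble (SE 0.15, adjusted p 0.032), and with shRNA 2 it was 0.68 higher than in vector (SE 0.15, adjusted p 0.0078), while scramble was 0.60 above vector (adjusted p 0.019). The call between the controls was lost without any 1 library of scramble or vector. The level with shRNA 1 stood at that of vector, and the level with shRNA 2 at that of scramble. The fall against scramble was lost without any 1 knockdown-arm library (adjusted p up to 0.21), and the rise against vector without replicate 1 of shRNA 2 or of vector (adjusted p up to 0.089). In knockout cells levels were 13.7 and 18.1 CPM, against 19.8 and 14.6 CPM in the knockout control.

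ZMAT3, which encodes an RNA-binding zinc finger protein, was at 39.4 and 38.7 CPM with shRNA 1, at 28.3 and 33.1 CPM with shRNA 2, at 28.5 and 37.2 CPM with scramble, and at 23.0 and 18.9 CPM with vector. It rose by 0.90 with shRNA 1 against vector (SE 0.23, adjusted p 0.023), a call lost without any 1 library of shRNA 1 or vector (adjusted p up to 0.19). Knockout libraries had 26.9 and 17.2 CPM, against 13.01 and 19.3 CPM in the knockout control. PHLDA3, an inhibitor of the kinase AKT (33.7 to 72.4 CPM), and BTG2, an antiproliferative gene (0.818 to 2.78 CPM, at most 32 counts), were not called in any of the 8 comparisons.

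Of the 4 genes of DNA repair, POLH alone was called in a comparison with a p53 construct (background 33.4%). POLH, the gene of a DNA polymerase that copies past lesions, was at 44.8 and 45.3 CPM with shRNA 1, at 37.6 and 35.6 CPM with shRNA 2, at 33.8 and 38.0 CPM with scramble, and at 47.8 and 46.6 CPM with vector. It fell by 0.37 with shRNA 2 against vector (SE 0.10, adjusted p 0.025), as scramble did (-0.40, adjusted p 0.023), and the fall was lost with DESeq2 and without any 1 library of shRNA 2 or vector (adjusted p up to 0.16). The call of scramble below vector was lost without any 1 library of scramble or vector. In the knockout POLH was at 52.0 and 49.7 CPM, against 41.7 and 48.4 CPM in its control. DDB2, a damage-recognition gene whose window holds the paired decamers, was at 28.3 and 30.1 CPM with shRNA 1, at 31.4 and 30.5 CPM with shRNA 2, at 25.0 and 20.8 CPM with scramble, and at 40.0 and 38.3 CPM with vector. Both hairpins lay between the controls, without a call against scramble (0.35 and 0.44, adjusted p 0.13 and 0.066) or vector (-0.42 and -0.34, adjusted p 0.051 and 0.082), and scramble was lower than vector (-0.77, adjusted p 0.0019). In the knockout DDB2 was at 22.7 and 25.5 CPM, against 28.7 and 23.0 CPM in its control. XPC, another recognition gene (27.7 to 47.1 CPM), and RRM2B, which encodes a subunit of ribonucleotide reductase (25.5 to 51.8 CPM), were not called in any of the 8 comparisons.

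Among the stress and metabolic members, group means of GDF15 spanned 17.8-fold, while those of SESN1, RPS27L, FDXR and SESN2 spanned 1.42-fold to 2.16-fold. GDF15, a secreted cytokine of cell stress, was at 16.3 and 15.5 CPM with shRNA 1, at 46.4 and 44.1 CPM with shRNA 2, at 32.6 and 29.0 CPM with scramble, and at 9.20 and 9.65 CPM with vector. No groups of the arm overlapped. GDF15 fell by 0.95 with shRNA 1 against scramble (SE 0.15, adjusted p 0.0025), and it was raised by 0.55 with shRNA 2 (SE 0.13, adjusted p 0.029), the sole member called in opposite directions with the hairpins against the same control (background 0.247% against scramble). Against vector it rose by 0.75 with shRNA 1 (SE 0.16, adjusted p 0.0098) and by 2.26 with shRNA 2 (SE 0.15, adjusted p 2.7e-06), so that with shRNA 1 the direction turned with the control, scramble being 1.71 above vector (adjusted p 2.5e-05). The rise with shRNA 2 against scramble was lost without any 1 knockdown-arm library (adjusted p up to 0.25), and that with shRNA 1 against vector without any 1 library of shRNA 1 or vector (adjusted p up to 0.090). In the knockout arm GDF15 was at 2.37 and 2.78 CPM in the knockout, against 3.20 and 1.87 CPM in its control (log2 fold change -0.0031, 95% interval -0.53 to 0.52).

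SESN2, which encodes a sestrin that restrains the growth kinase mTORC1, was at 24.4 and 27.5 CPM with shRNA 1, at 17.3 and 18.8 CPM with shRNA 2, at 16.82 and 15.0 CPM with scramble, and at 23.5 and 22.9 CPM with vector. shRNA 1 and vector stood high, and shRNA 2 and scramble low. Scramble was lower than vector (-0.54, adjusted p 0.014), a call lost without replicate 2 of scramble or any 1 library of vector. SESN2 rose by 0.70 with shRNA 1 against scramble (SE 0.13, adjusted p 0.0062), but was at 0.16 against vector (adjusted p 0.44), and the call was lost without replicate 2 of scramble or of shRNA 1 (adjusted p up to 0.085). In knockout cells levels were 25.1 and 28.0 CPM, against 37.3 and 31.4 CPM in the knockout control (-0.38, adjusted p 0.64), without overlap. SESN1, a sestrin gene at 3.22 to 5.14 CPM, was not called in any comparison. FDXR, a mitochondrial electron carrier gene (5.02 to 12.7 CPM), was called in scramble against vector alone among the 8 comparisons (-0.86, adjusted p 0.034), a call lost without any 1 knockdown-arm library (adjusted p up to 0.23).

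RPS27L encodes a ribosomal protein with a near-identical relative, RPS27, and how any reads that match both were counted is not given in the sources used here. RPS27L was at 89.1 and 84.2 CPM with shRNA 1, at 119.2 and 108.7 CPM with shRNA 2, at 95.5 and 96.9 CPM with scramble, and at 98.3 and 97.5 CPM with vector. shRNA 1 lay below the controls and shRNA 2 above them, and RPS27L was called between the hairpins alone, a call lost without any 1 knockdown-arm library (adjusted p up to 0.22). Knockout libraries had 66.5 and 73.2 CPM, against 74.2 and 60.5 CPM in the knockout control.

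**Figure D2:**
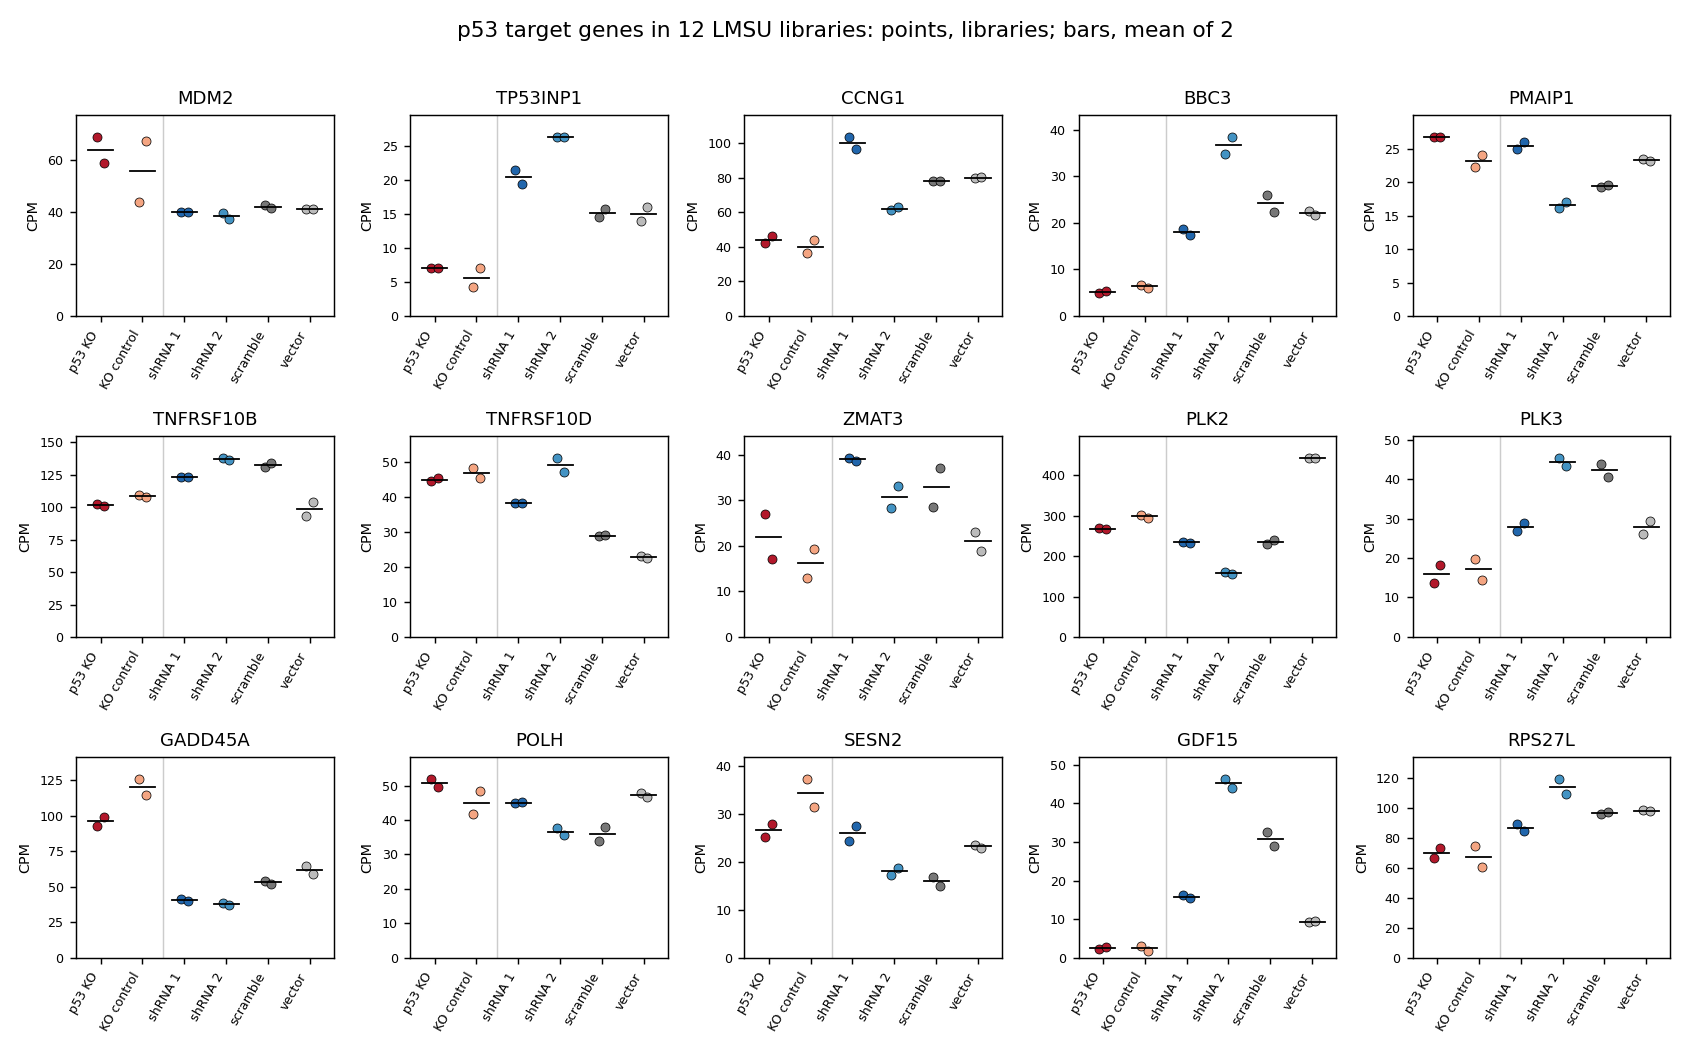
Levels in CPM (vertical axes, starting at 0) of MDM2 and the 14 members called in at least 1 comparison with a p53 construct, in 6 groups (horizontal axes). Points are the 12 libraries and bars the mean of 2. GDF15 lies between 1.87 and 3.20 CPM in the knockout arm, and between 9.20 and 46.4 CPM in the knockdown arm, and TNFRSF10D is higher with both hairpins than in scramble and vector.

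The hairpins were compared with each other, since they aim at the same gene and share no control in this contrast. Of the 31 members 4 were higher and 5 lower with shRNA 1 than with shRNA 2 (background 14.3%), and 18 were called when these 8 libraries were fitted alone (background 38.8%). The members lower with shRNA 1 were GDF15 (-1.51, SE 0.14, adjusted p 1.1e-04), BBC3 (-1.02, SE 0.12, adjusted p 3.2e-04), PLK3 (-0.67, adjusted p 0.014), RPS27L (-0.39, adjusted p 0.029) and TNFRSF10D (-0.36, adjusted p 0.020). Those higher were CCNG1 (0.69, adjusted p 0.0014), PMAIP1 (0.61, adjusted p 0.0024), PLK2 (0.56, adjusted p 5.4e-04) and SESN2 (0.52, adjusted p 0.019). The calls of PLK3, TNFRSF10D and SESN2 were lost without any 1 library of either hairpin, and that of TNFRSF10D also with no filter on low counts. For GADD45A the hairpins stood 0.10 apart (95% interval -0.11 to 0.31), for MDM2 0.06 (-0.31 to 0.42) and for XPC -0.10 (-0.31 to 0.11). CDKN1A, the textbook target outside the list, was at 83.9 and 90.2 CPM with shRNA 1, against 192.2 and 207.2 CPM with shRNA 2, and at 115.8 and 118.5 CPM with scramble and 70.0 and 68.4 CPM with vector. The count between hairpins was 15 without replicate 1 or replicate 2 of the knockout control, and 5 without any 1 library of shRNA 1 or shRNA 2, while the share of all genes called ran from 5% to 27.5%.

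**Figure D3:**
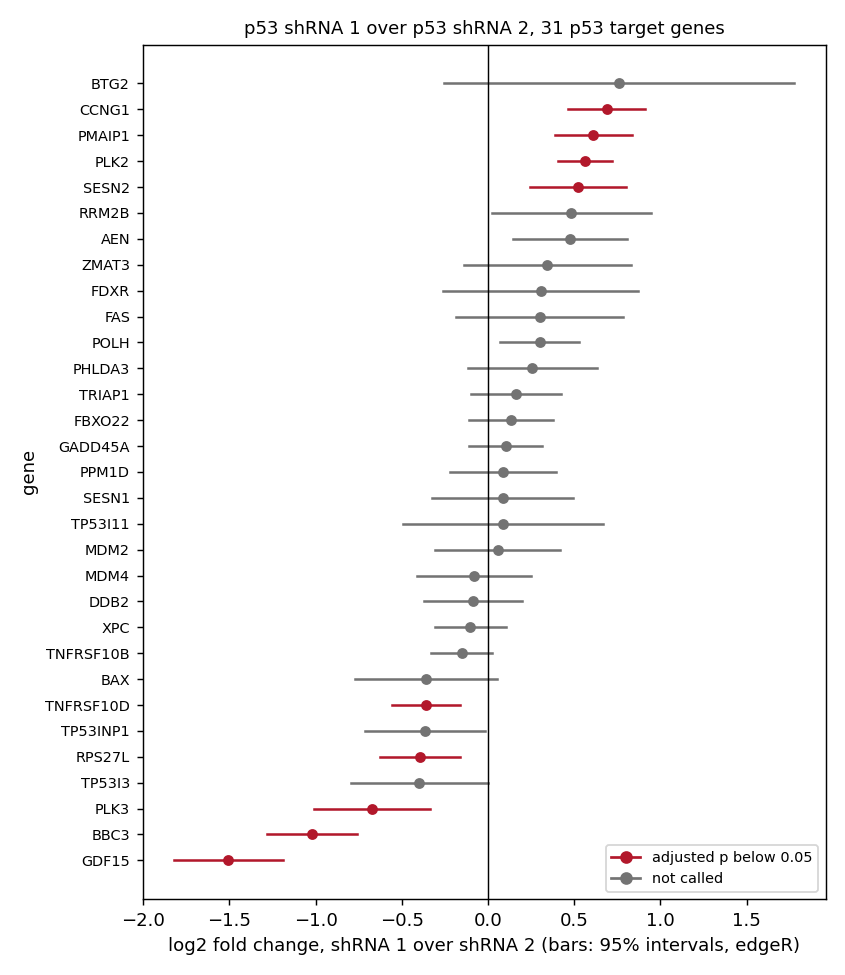
Log2 fold change of shRNA 1 over shRNA 2 (horizontal axis) for the 31 tested members (vertical axis, in order of value), with 95% intervals from edgeR as bars and called members in red. GDF15 at -1.51 and BBC3 at -1.02 lie lowest, and of the called members CCNG1 at 0.69 lies highest.

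The knockout was compared with its control to ask which targets answer to loss of the p53 protein without hairpins or doxycycline. Of the 31 members 10 had a positive and 21 a negative log2 fold change, from -0.89 for TP53I11, at 5 to 12 counts in those libraries, to 0.47 for FAS. The 5 with an unadjusted p below 0.05 were GADD45A (-0.33), SESN2 (-0.38), PLK2 (-0.16), FAS (0.47) and PMAIP1 (0.21), each with knockout libraries on 1 side of the control libraries. The 95% intervals stayed within a 2-fold change either way for every tested member but TP53I11 and BTG2. These intervals rest on the spread shared by all 12 libraries (9.55%). The knockout arm alone had 15.6%, so intervals for the knockout, here and in the passages above, may be too narrow. Without replicate 2 of the knockout control, when its remaining library is assumed to vary like the other groups, 12 members were called beside 30.3% of all genes tested, 7 higher, among them MDM2 (0.53, adjusted p 0.0021) and RRM2B (0.64, adjusted p 0.0050), and 5 lower, among them FDXR (-0.65, adjusted p 0.0086) and GADD45A (-0.40, adjusted p 0.0034), while without replicate 1 the count was 0 (edgeR, background 0.125%).

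**Figure D4:**
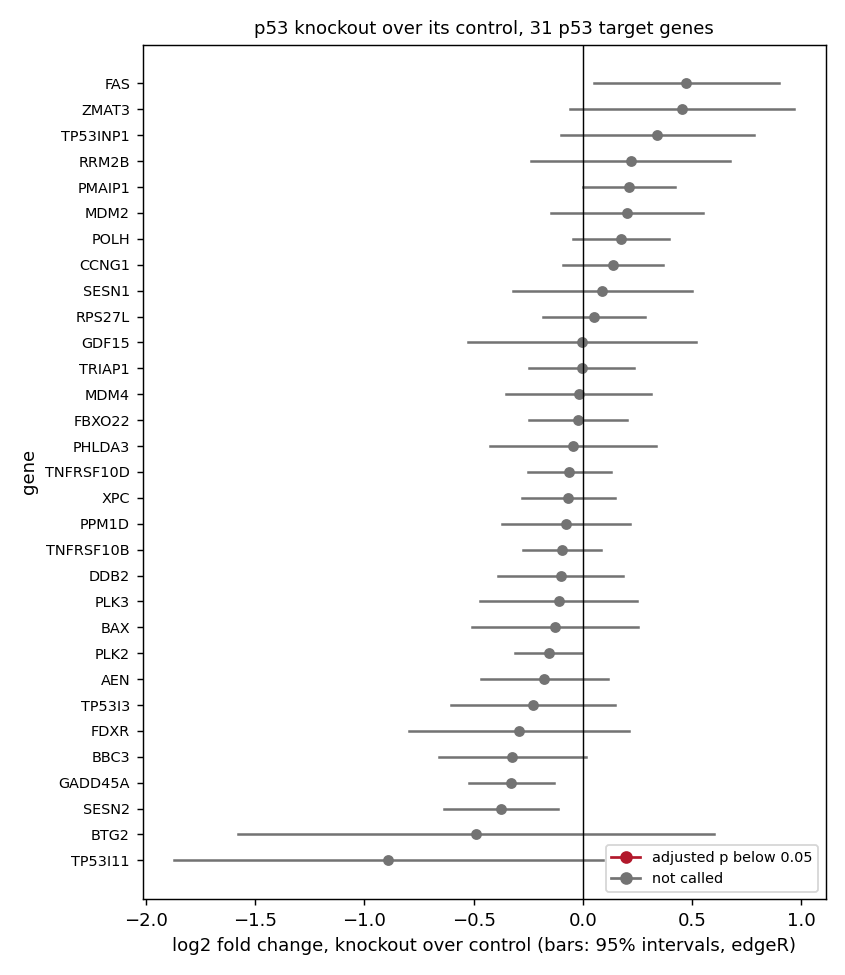
Log2 fold change of the p53 knockout over its control (horizontal axis) for the 31 tested members (vertical axis, in order of value), with 95% intervals from edgeR as bars. The intervals use the spread shared by all 12 libraries. None of the 31 is called, and FAS at 0.47 and TP53I11 at -0.89 are the ends of the range.

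Whether the knockout effect differed from the mean effect of the hairpins against scramble was tested directly. Of the 31 members, 2 were called, both lower (background 1.1%): SESN2 (-0.82, SE 0.165, adjusted p 0.043) and TNFRSF10D (-0.65, SE 0.118, adjusted p 0.029). For SESN2, scramble was itself below vector (-0.54, adjusted p 0.014), and against vector the hairpins were at 0.16 (shRNA 1) and -0.37 (shRNA 2). In the knockout itself SESN2 was at -0.38 and TNFRSF10D at -0.06, without a call. Mean levels of both SESN2 and TNFRSF10D lay below the control in the knockout and above scramble with each hairpin. Neither was called in the fit without vector libraries, nor without any 1 library of the knockout or of the knockdown arm, where the count was 0 (edgeR, with 5 members at an unadjusted p below 0.05 in the fit to all libraries), and without replicate 2 of the knockout control the count was 10 (background 24.5%).

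Libraries of the knockout arm and the knockdown arm did not overlap for 15 of the 31 members, 6 higher and 9 lower in the knockout arm, a share near the background of 52.7% of tested genes. BBC3 was at 4.90 to 6.75 CPM in the knockout arm, against 17.5 to 38.5 CPM in the knockdown arm, TP53INP1 at 4.24 to 7.05 CPM and 14.0 to 26.3 CPM, and CCNG1 at 36.2 to 46.1 CPM and 61.5 to 103.8 CPM. GADD45A ran the other way, at 93.1 to 126.1 CPM in the knockout arm, against 37.4 to 65.0 CPM in the knockdown arm, as did AEN, at 35.9 to 46.6 CPM and 13.5 to 21.7 CPM. Markers of fibroblasts moved with the arms too: the 8 of them, all tested and none at 0, summed to 3061 to 3920 CPM in the knockout arm, against 17579 to 21890 CPM in the knockdown arm. Doxycycline, the constructs and any other difference between the arms cannot be told apart here.

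A second list of 60 other p53 targets, all of them in the table, held 49 tested genes. In the knockout 0 were called by edgeR or DESeq2, and 6 had an unadjusted p below 0.05. With shRNA 1 against scramble 1 rose and 6 fell, 14.3% of the 49 (background 9.41%). Among those that fell were NINJ1, a gene of membrane rupture (-0.77), FUCA1, a fucosidase gene (-0.60), the cytokine gene LIF (-0.57) and RAP2B, a small GTPase gene (-0.39). With shRNA 2 against scramble 2 rose and 2 fell, 8.16% of the 49, near the background of 7.74%. The growth factor gene CSF1 (0.96, adjusted p 1.8e-04) and PERP, a desmosome gene (0.45, adjusted p 0.022), rose. BLOC1S2 (-0.54) and TIGAR, a metabolic phosphatase listed as C12orf5 (-0.82), fell. Against vector 6 rose and 5 fell with shRNA 1 (22.4%, background 13%), and 7 rose and 6 fell with shRNA 2 (26.5%, background 21%). SUSD6, listed as KIAA0247, was higher with both hairpins (1.02 and 1.44) and also in scramble (1.21) than in vector. Between hairpins CSF1 (-1.06) and PERP (-0.85) were lower and PANK1, a coenzyme A synthesis gene, higher (1.21) with shRNA 1. Medians of the 49 were -0.04, -0.03 and -0.03 in the knockout and with shRNA 1 and shRNA 2 against scramble, and 0.13 and -0.0011 with shRNA 1 and shRNA 2 against vector (all genes between -0.01 and 0.01).

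Of 26 tested regulators of p53, among them kinases, acetylases and ligases, edgeR called 0 in the knockout and 0 with each hairpin against scramble. At an unadjusted p below 0.05 there were 1, 3 and 3, and DESeq2 called 0 in each. Against vector 1 rose and 2 fell with shRNA 1 (11.5%, background 13%), and 3 rose and 1 fell with shRNA 2 (15.4%, background 21%). RPL5, a ribosomal protein gene that restrains MDM2, rose with both (0.51 and 0.38, adjusted p 0.0089 and 0.025).

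Genes of other programmes were called beside the members, as were fibroblast markers. Of the 8 markers, 1 rose and 1 fell with shRNA 1 against scramble (background 9.41%), and 2 rose and 1 fell with shRNA 2 (background 7.74%). Against vector 5 rose and 1 fell with shRNA 1 (background 13%), and 5 rose and 2 fell with shRNA 2 (background 21%). In scramble 4 were higher and 1 lower than in vector (background 15.3%). The same backgrounds apply to the lists that follow, with 14.3% between the hairpins. In the knockout DCN alone of the 8 was called, higher (0.69, adjusted p 0.038), 6 had an unadjusted p below 0.05, and the median of the 8 was 0.35. Their part in the members' differences was not tested. Of 24 ATF4 targets 5 rose and 4 fell with shRNA 1 against scramble and 3 rose and 6 fell with shRNA 2, while 9 were higher and 2 lower with shRNA 1 than with shRNA 2, the serine synthesis gene PSAT1 (1.92) and the asparagine synthetase gene ASNS (1.77) among the higher. Against vector all 11 called fell with shRNA 1, 1 rose and 14 fell with shRNA 2, and 1 was higher and 16 lower in scramble. The summed level of the 24 was 3587 to 3643 CPM with shRNA 1, 3473 to 3584 CPM with shRNA 2, 3236 to 3372 CPM in scramble and 4814 to 4869 CPM in vector.

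Of 19 immediate early genes, a group of rapid-response genes, 8 fell and 1 rose with shRNA 1 against scramble (median -0.49, background 9.41%). EGR1 fell by 1.02. With shRNA 2 against scramble 2 fell and 1 rose, 15.8% of the 19 (median -0.07, background 7.74%). Of 22 G2/M genes 9 were called with shRNA 2 against scramble, all lower (median -0.34, background 7.74%). With shRNA 1 against scramble AURKA alone was called, lower (-0.40, adjusted p 0.046, background 9.41%), and the median of the 22 was 0.05. Against vector 17 of the 22 fell with shRNA 1 (background 13%) and 21 with shRNA 2 (background 21%), and 20 were lower in scramble (background 15.3%). In the knockout edgeR called 0 of the ATF4 targets, 0 of the immediate early genes and 0 of the G2/M genes, with 5, 4 and 0 at an unadjusted p below 0.05, and DESeq2 called 1, 0 and 0.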

How the data were processed

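Per the submitters' processing notes, reads were handled with bcl2fastq and STAR 2.5 on hg19, and the authors deposited raw read counts per gene symbol for 12 libraries, with no normalisation. How multi-mapped reads and strand were treated is not given in the sources used here. From those counts, CPM were computed with TMM scaling, and edgeR 4.0.16 (R 4.3.3) was fitted with filterByExpr at a minimum count of 10 and a coefficient for each of 6 groups. The quasi-likelihood test was adjusted by Benjamini-Hochberg over 13365 genes and called at 0.05. SE is the log2 fold change divided by the square root of F. Depth, 9738094 to 16823246 counts, sets the counting error only. Alternatives were DESeq2 1.42.0, RLE size factors, no filter, fewer groups, a replicate block and leaving out each library. The scripts were checked on simulated counts, drawn with a spread shared by all 12 libraries. That check does not cover the difference in spread between the arms. Replicate numbers do not pair the libraries. The members and lists were chosen with earlier results of these data known. Members called in any comparison with a p53 construct, and MDM2, were given library by library, and from each other list up to 4 genes with the smallest adjusted p. The level of the gene the constructs target is not reported here.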

Additional observations from a re-analysis of the deposited data

Results flagged for a closer look

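The effect of the knockout differed from the mean effect of the hairpins against scramble for 2 members, by a test of the difference itself in edgeR with Benjamini-Hochberg adjustment over all genes. TNFRSF10D had a difference of -0.65 on the log2 scale (SE 0.118, adjusted p 0.029), with all 4 hairpin libraries above both scramble libraries. Its knockout libraries, at 44.4 and 45.4 CPM, lay barely below those of the control, at 48.2 and 45.5 CPM, without a call (-0.06, adjusted p 0.84). For SESN2 all 4 hairpin libraries lay above both scramble libraries, and the knockout libraries below both control libraries, without a call (-0.38, adjusted p 0.64). Its difference of effects was -0.82 (SE 0.165, adjusted p 0.043). This difference rests on scramble, where SESN2 was lower than in vector (-0.54, adjusted p 0.014). Against vector SESN2 was at 0.16 with shRNA 1 and at -0.37 with shRNA 2, neither called. The calls of both differences, for TNFRSF10D and SESN2, were lost with only the groups compared and with the replicate block. They were also lost on leaving out any 1 library other than those of the knockout control.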

How the results depend on the processing

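The knockout called 0 members, and 0 to 12 on leaving out 1 library, while the share of all tested genes called ran from 0.0073% to 30.3%. The other counts on leaving out 1 library ran from 1 to 12 with shRNA 1 (2.48% to 21.2% of all genes) and 2 to 12 with shRNA 2 (1.72% to 19.3%) against scramble, 3 to 11 (3.64% to 28%) and 7 to 16 (10.3% to 35.3%) against vector, 5 to 15 between the hairpins (5% to 27.5%), 3 to 15 in scramble against vector (6.44% to 29.8%), and 0 to 10 for the knockout effect minus the mean hairpin effect (0.183% to 24.5%). With only the groups compared, the counts were 13 and 15 against scramble (31% and 32.3% of all genes), 14 and 18 against vector (41.9% and 49.7%), 18 between the hairpins (39.8%), 17 in scramble against vector (44.4%) and 0 for the difference of effects (0.398%). With the 8 knockdown-arm libraries, they were 14 and 15 against scramble (33.2% and 31.5%), 14 and 18 against vector (40.7% and 46.7%), 18 between the hairpins (38.8%) and 15 in scramble against vector (42.1%). Within the knockdown arm both fits leave out the noisier knockout arm, and for the difference of effects the groups compared leave out vector alone, where the cause was not tested. The replicate numbers did not pair the libraries. With the replicate block the count was 4 with shRNA 1 against scramble (6.86% of all genes), where CCNG1, PMAIP1 and PLK3 were lost, 0 for the difference of effects (0.449%), where SESN2 and TNFRSF10D were lost, and the same as without the block in the other 6 comparisons. Deviations of the knockout and its control ran opposite by number (r -0.648 across genes), and a block with crossed pairs, added after seeing the data, called 2 members lower in the knockout, among 624 genes (4.67%), and 6 for the difference of effects, among 1951 genes (14.6%). Of 50 calls of a member in a comparison, 40 held under every alternative other than leaving out a library and 20 on leaving out each library. No call changed direction. DESeq2, RLE size factors and the filter kept every count within 1.5 times. With 2 libraries a group, small differences were not detectable at this spread.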
